A study of Mus musculus with 6 samples.

Results

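The 10 genes described here belong to the families of large methyltransferases that act on lysines 4 and 36 of histone H3. All were followed in C2C12 mouse myoblasts given 5-fluorouracil (5-FU). They were taken by symbol from a deposited table of 21899 genes, all 10 were found in it, and all 10 were among the 12135 genes with enough counts to test. The members are Kmt2a, Kmt2b, Kmt2c, Kmt2d, Kmt2e, Setd1a and Setd1b of the H3K4 family and Setd2, Nsd1 and Ash1l of the H3K36 family. All 10 are called methyltransferases here by family, although the protein of Kmt2e has no known methyltransferase activity. They were picked with their difference between 5-FU and control already known, so their levels and fold changes in that comparison are given here as a description and not as a test.

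C2C12 is a clonal mouse myoblast line, labelled wild type and called myocytes in the labels. The study holds 6 libraries, of which 3 came from cells given phosphate-buffered saline (PBS) and 3 from cells given 5-FU at 5 µg per L for 24 hours, a low dose that the series calls metronomic. 5-FU, a pyrimidine analogue used against cancer, blocks thymidylate synthase and is also incorporated into nucleic acids. Nothing in the labels ties the replicates to separate cultures, so p-values measure only the spread between these libraries, which may be technical. In 5-FU replicates 2 and 3 the cell line field ends in other digits than in the title, which names C2C12 for all 6 libraries. The titles were followed, and the results are also given without those libraries.

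H3K4 methylation marks promoters and enhancers, and H3K36 methylation is laid down over the bodies of transcribed genes and by enzymes that act more broadly. KMT2A and KMT2B are catalytic subunits of complexes that hold menin and act at promoters, KMT2C and KMT2D write the H3K4 monomethylation of enhancers, and SETD1A and SETD1B supply most H3K4 trimethylation. In mice KMT2D is needed for muscle differentiation. SETD2 travels with elongating RNA polymerase II and writes H3K36 trimethylation, while NSD1 and ASH1L write lower methylation states of the same residue. All of these proteins are very large, and so are their transcripts.

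Estimated counts summed to between 19583312 and 23016735 a library. Levels are in CPM, rounded counts scaled by their total over the genes tested and by edgeR's TMM factor, unless another scale is named. Of the myoblast markers, Myod1 lay between 207 and 238 TPM (the authors' level scaled by transcript length and depth) and Des, the muscle intermediate filament gene, between 1766 and 2239 TPM. Over all 7 myoblast markers the sum was 3204 to 3307 TPM in PBS and 3521 to 4116 TPM in 5-FU. Des was the largest part of it, with means of 1806 TPM in PBS and 2069 TPM in 5-FU. Means of Myog were 340 and 442 TPM in the same order, and those of Pax7 3.89 and 3.87 TPM. Epcam was at 0 in all 6 libraries and Ptprc in 5 of 6, while Pecam1 and Cdh5 stayed at or under 0.174 and 0.141 TPM. The largest sum over the 4 haematopoietic markers was 11.3 TPM, mostly from Cd68, with 5.07 to 6.70 in PBS and 6.59 to 11.3 in 5-FU. The 4 endothelial markers summed to 0.099 to 0.286 TPM in PBS and 0.362 to 0.639 TPM in 5-FU. The 4 epithelial markers summed to 1.18 to 1.77 and 1.26 to 1.73 TPM, and the 4 adipocyte markers to 2.24 to 3.01 and 1.72 to 3.01 TPM. The part of these markers in the results was not tested. In bulk RNA, fewer cells with a transcript and less of it in each cell cannot be told apart.

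The promoters of 5 members are in the RefSeq table for build GRCm38.p6 (250 bases before to 50 bases after the start). Those of 3 genes are printed because they stand for the members with the largest differences (Kmt2a and Kmt2d) and for the member that barely differed (Setd1a). Capitals mark GC boxes, the letters GGGCGG on either strand (CCGCCC on the printed strand), counted by their start so that overlapping matches count separately. Kmt2a lies at chr9:44881240-44881539 on the minus strand, Kmt2d at chr15:98871156-98871455 on the minus strand and Setd1a at chr7:127777139-127777438 on the plus strand.
Kmt2a: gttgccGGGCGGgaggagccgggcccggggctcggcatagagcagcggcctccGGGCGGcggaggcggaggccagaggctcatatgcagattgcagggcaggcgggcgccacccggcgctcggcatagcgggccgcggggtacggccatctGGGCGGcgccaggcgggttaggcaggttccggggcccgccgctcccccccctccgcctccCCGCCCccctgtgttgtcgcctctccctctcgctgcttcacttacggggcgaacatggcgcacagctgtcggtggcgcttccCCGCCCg
Kmt2d: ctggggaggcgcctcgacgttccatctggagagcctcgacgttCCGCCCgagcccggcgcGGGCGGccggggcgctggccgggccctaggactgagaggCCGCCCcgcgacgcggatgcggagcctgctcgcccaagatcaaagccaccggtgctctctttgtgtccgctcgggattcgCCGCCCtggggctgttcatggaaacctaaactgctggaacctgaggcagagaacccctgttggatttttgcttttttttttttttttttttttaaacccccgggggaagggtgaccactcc
Setd1a: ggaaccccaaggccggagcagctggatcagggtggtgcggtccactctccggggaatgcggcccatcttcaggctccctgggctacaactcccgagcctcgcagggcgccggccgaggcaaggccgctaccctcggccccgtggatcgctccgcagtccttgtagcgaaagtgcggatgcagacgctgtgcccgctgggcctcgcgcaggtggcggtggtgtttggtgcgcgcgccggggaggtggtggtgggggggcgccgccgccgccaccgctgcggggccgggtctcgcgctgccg
The Kmt2a window holds 5 GC boxes and 36 CpG, the Kmt2d window 4 and 27, and the Setd1a window 0 and 35. Setd2 has 7 GC boxes and Kmt2c has 12, and 35.7% of the 32851 promoters in the table hold at least 1. GC content was 75.7%, 62.7% and 73.7% in the printed windows, against a median of 52.7% over the table, and the median number of CpG was 7. None of the 5 windows held TATAAA, which 13.6% of promoters have on one strand or the other. Windows rich in CpG were found both in genes that were higher with 5-FU and in Setd1a and Setd2 (38 CpG), whose groups overlapped.

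Kmt2a, the founding member of the family, gave the largest difference. Its level was 77.3, 72.3 and 56.2 CPM in PBS replicates 1 to 3 and 88.0, 93.1 and 106.5 CPM in 5-FU replicates 1 to 3. Every 5-FU library lay above every PBS library, and PBS replicate 3 was the lowest of all. The group means were 68.6 ± 11.1 and 95.9 ± 9.57 CPM (SD, n = 3), a 1.40-fold difference (log2 fold change 0.48, SE 0.10). Only 2.77% of all genes tested had a larger rise. In the authors' deposited table of 186 genes Kmt2a is the only one of the 10 members. Its mean TPM values there are 8.32 in PBS and 13.0 in 5-FU, a log2 ratio of 0.65. The smallest absolute log2 ratio listed there is 0.585.

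Kmt2b, the closest relative of Kmt2a, stood at 50.7, 50.5 and 43.8 CPM in PBS and at 61.7, 57.1 and 61.7 CPM in 5-FU. The groups did not overlap, and 5-FU replicates 1 and 3 were nearly equal. Its mean went from 48.3 ± 3.89 to 60.2 ± 2.70 CPM (SD, n = 3; log2 fold change 0.32, SE 0.065).

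The enhancer enzymes were also higher with 5-FU. Kmt2d, the most abundant of the 10 in counts and the gene with the longest transcript, had 143.6, 127.8 and 107.8 CPM in PBS and 155.1, 165.8 and 176.1 CPM in 5-FU. All 5-FU libraries were above all PBS libraries, although PBS replicate 1 and 5-FU replicate 1 were close (log2 ratio 0.11). The means of 126 ± 17.9 and 166 ± 10.5 CPM (SD, n = 3) differ by a log2 fold change of 0.39 (SE 0.086). Kmt2c, the paralogue of Kmt2d, was expressed at a much lower level, with 20.01, 16.8 and 18.4 CPM in PBS and 20.5, 24.5 and 26.1 CPM in 5-FU. Here too the groups did not overlap, but 5-FU replicate 1 exceeded PBS replicate 1 by a log2 ratio of only 0.034. The log2 fold change of Kmt2c was 0.36 (SE 0.099).

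Kmt2e, whose protein carries a SET domain without known methyltransferase activity, was at 45.4, 46.4 and 43.5 CPM in PBS and at 43.1, 51.5 and 53.8 CPM in 5-FU. The lowest and the highest values were both 5-FU libraries, so the groups overlapped (log2 fold change 0.13, SE 0.077). Without 5-FU replicate 1 the value was 0.22, and without 5-FU replicate 3 it was 0.060. Its estimated counts were not whole numbers in any of the 6 libraries, the only member for which this was so, and in the GENCODE M21 annotation the gene overlaps the kinase gene Srpk2 on the other strand. The overlap is between whole gene spans, and shared exons were not looked for. The labels mention no strand marking, so reads from any shared exons could not be told apart by strand.

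Of the SETD1 enzymes, Setd1a had the smallest difference of the 10 members. It stood at 71.5, 64.4 and 64.4 CPM in PBS and at 66.7, 63.8 and 70.9 CPM in 5-FU, and the 2 groups covered nearly the same range. Only 4 of the 9 possible pairs of a 5-FU and a PBS library were higher in 5-FU. Its log2 fold change was 0.009 (SE 0.059), and it overlaps Gm49388, a gene model on the same strand that is also in the deposited table. Setd1b had 44.0, 39.7 and 34.5 CPM in PBS and 40.7, 42.7 and 46.5 CPM in 5-FU. PBS replicate 1 was higher than 2 of the 5-FU libraries, and the log2 fold change was 0.14 (SE 0.085). That value was 0.22 when PBS replicate 1 was left out, 0.049 when PBS replicate 3 was, and 0.076 when 5-FU replicate 3 was.

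Among the H3K36 enzymes, Nsd1 stood at 47.8, 45.2 and 42.6 CPM in PBS and at 46.6, 55.3 and 58.7 CPM in 5-FU. Ash1l stood at 40.7, 38.5 and 36.5 CPM in PBS and at 39.2, 47.1 and 53.3 CPM in 5-FU. For both, 5-FU replicates 2 and 3 were above all PBS libraries and 5-FU replicate 1 was among them, which makes 8 of 9 pairs higher in 5-FU. The gene span of Ash1l overlaps Dap3 on the other strand, with the limits given for Kmt2e. Unlike those of Kmt2e, its estimated counts were whole numbers in every library. The log2 fold changes were 0.24 (SE 0.081) for Nsd1 and 0.27 (SE 0.096) for Ash1l, and without 5-FU replicate 3 that of Ash1l was 0.15. Setd2, the H3K36 trimethylase, was the rarest in CPM beside Kmt2c, at 18.3, 18.8 and 19.3 CPM in PBS and 17.03, 20.7 and 22.3 CPM in 5-FU. Its 5-FU libraries spanned the whole PBS range (log2 fold change 0.087, SE 0.095). Without 5-FU replicate 1 this value was 0.19, and without 5-FU replicate 3 it was -0.003.

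**Figure D1:**
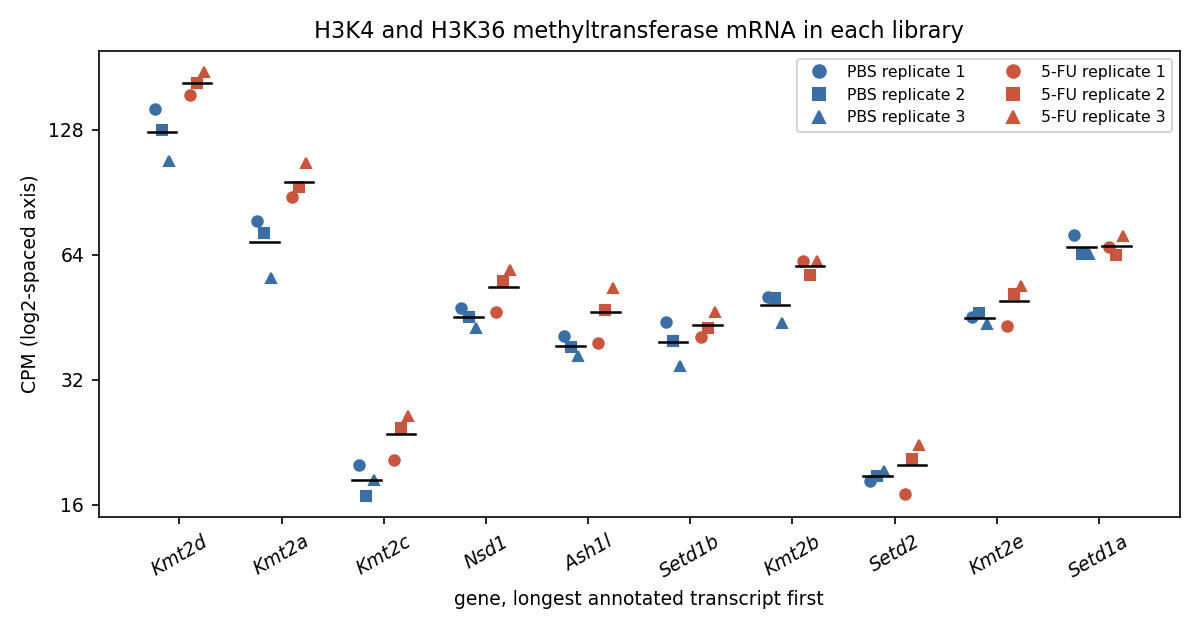
Each point is one library, in CPM on a log2-spaced vertical axis, with PBS in blue, 5-FU in red and the replicate number as the symbol, and bars are group means. The 3 5-FU points lie above the 3 PBS points for Kmt2d, Kmt2a, Kmt2c and Kmt2b, and the groups overlap for the other 6 genes.

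Counted over the set, all 10 fitted values were above 0, with a median log2 fold change of 0.26 against 0.001 over all genes tested. Without 5-FU replicate 3 the median was 0.16, and Setd1a and Setd2 were below 0. edgeR's quasi-likelihood test on the whole table placed 4 of the 10 above the calling threshold (adjusted p under 0.05), namely Kmt2a, Kmt2b, Kmt2c and Kmt2d. Of all genes tested 7.14% were called, 3.87% higher and 3.26% lower. The same 4 were the members whose groups did not overlap, whereas of all genes tested 29.3% had groups without overlap, 15.0% with 5-FU higher and 14.2% with 5-FU lower. Since the members were chosen on this comparison, nothing is read from these shares. Without 5-FU replicate 3 none of the 10 was called, and without PBS replicate 2 only Kmt2b was. Without 5-FU replicate 1 there were 6, Nsd1 and Ash1l being added. Of all genes tested those 3 fits called 497, 259 and 664 in turn, against 866 with all libraries. Of the 6 fits that left out a library, only that without 5-FU replicate 1 kept the call of Kmt2c.

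The libraries carried the difference unequally. Measured as log2 CPM minus the gene's own mean over the 6 libraries, the median of the 10 genes was -0.051, -0.105 and -0.205 in PBS replicates 1 to 3 and -0.020, 0.143 and 0.231 in 5-FU replicates 1 to 3. All 10 genes were above their own mean in 5-FU replicate 3 and 9 were in 5-FU replicate 2, but only 3 were in 5-FU replicate 1, and those were Kmt2a, Kmt2b and Kmt2d. No member was above its mean in PBS replicate 2 or PBS replicate 3. With same-numbered libraries set against each other, 4 of 10 members were higher in 5-FU for replicate 1, 9 for replicate 2 and 10 for replicate 3. For Kmt2a these log2 ratios were 0.19, 0.37 and 0.92, for Kmt2d 0.11, 0.38 and 0.71, and for Ash1l -0.057, 0.29 and 0.54.

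The 2 libraries with the highest members are those whose cell line field differs from the title. With both left out, 5-FU replicate 1 alone still gave log2 fold changes of 0.36 for Kmt2a, 0.35 for Kmt2b, 0.29 for Kmt2d and 0.16 for Kmt2c. For the other members this comparison gave values between -0.14 (Setd2) and 0.044 (Setd1b), with a median over the 10 of 0.044. No call is read from this comparison, whose fit takes the single 5-FU library to vary as the PBS libraries do.

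**Figure D2:**
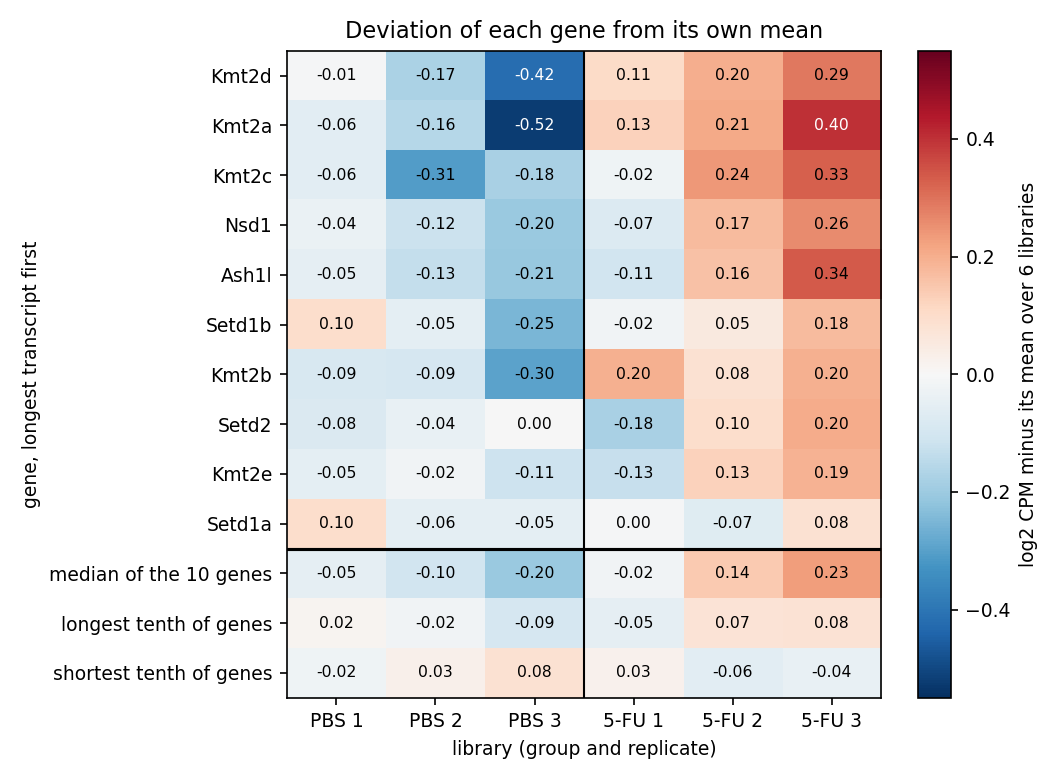
Each cell gives log2 CPM minus the mean over the 6 libraries for one gene (rows, longest transcript first) and library (columns), and the lower 3 rows give medians over the 10 methyltransferases and over the longest and shortest of 10 length bins of all tested genes. The methyltransferases are lowest in PBS replicate 3 (median -0.205) and highest in 5-FU replicate 3 (median 0.231), and the longest bin is also lowest and highest in those libraries.

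Transcript length moved with these differences. The longest annotated transcript of a member ran from 6487 bases (Setd1a) to 19823 bases (Kmt2d), where the median over tested genes was 3453. In order of length the first 5 members are Kmt2d, Kmt2a, Kmt2c, Nsd1 and Ash1l, with log2 fold changes between 0.24 and 0.48. The other 5 lay between 0.009 and 0.14, apart from Kmt2b at 0.32 with 8469 bases. Over all genes tested the median log2 fold change was -0.054 in the shortest of 10 equal bins (204 to 1472 bases) and 0.069 in the longest bin (6861 to 123179 bases), and among the 301 other genes of at least 10012 bases it was 0.12, with 18 called higher and 3 lower. The 9 longest members fall in the longest bin, where 5.94% of genes were called higher and 1.90% lower. The longest bin had median deviations of 0.016, -0.020 and -0.092 in the PBS libraries and -0.049, 0.074 and 0.079 in the 5-FU libraries, while the shortest bin had -0.024, 0.028 and 0.083 and then 0.025, -0.059 and -0.039. In 5-FU replicate 1 the longest bin was thus lower than in 2 of the 3 PBS libraries. Whether this trend lies in the cells or in the libraries was not tested.

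Offsets that take out, library by library, smooth trends along length and along GC content lowered all 10 values. Kmt2a went from 0.48 to 0.31 and was the only member still called, where 4.14% of all genes were called higher. Kmt2d went from 0.39 to 0.14, Kmt2c from 0.36 to 0.21, Kmt2b from 0.32 to 0.20, Ash1l from 0.27 to 0.16 and Nsd1 from 0.24 to 0.12. The median over the 10 was 0.13 in this fit, with -0.010 over all genes, and Setd1a took a negative value (-0.081). With trends in length alone the median was also 0.13 and Kmt2a and Kmt2b were called, whereas with trends in GC content alone it was 0.25 and all 4 calls remained. Both single corrections were chosen after the data were seen.

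**Figure D3:**
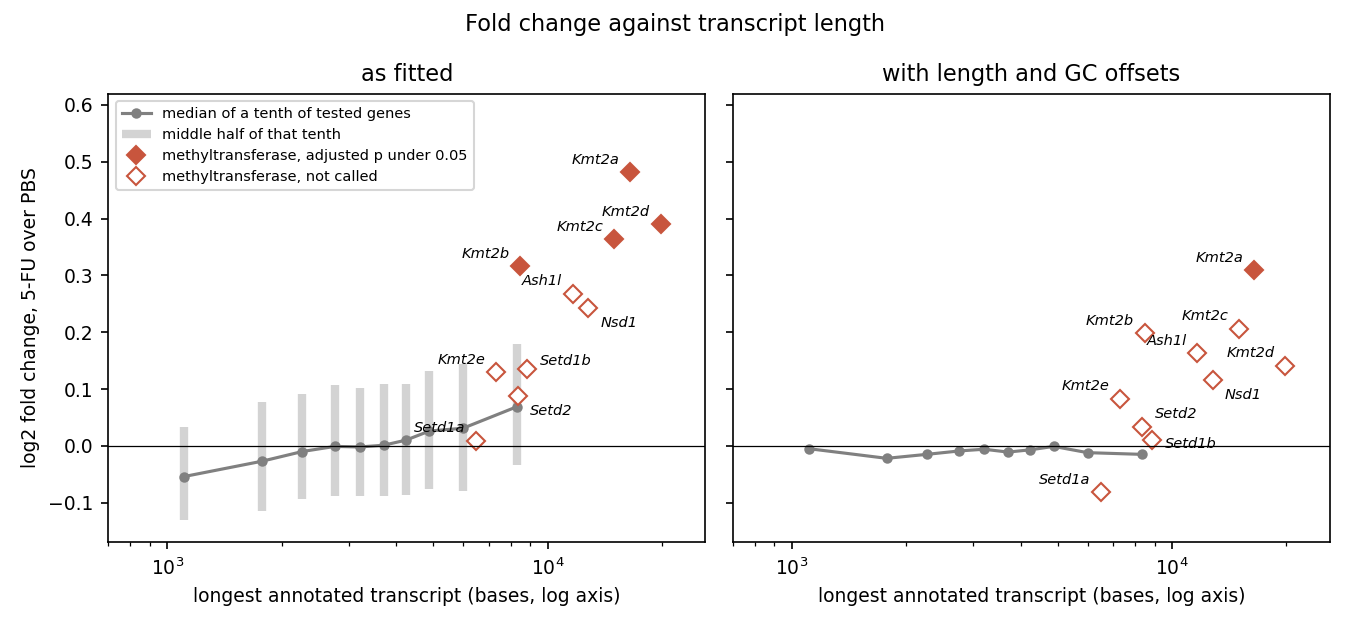
Log2 fold change (vertical) against the longest annotated transcript in bases (horizontal, log axis), as fitted on the left and with length and GC offsets on the right. Grey points are medians of 10 length bins of the tested genes, with pale bars between their quartiles on the left only. Diamonds are the 10 methyltransferases, filled where called. On the left the grey medians go from -0.054 to 0.069 and 4 diamonds are filled, and on the right only Kmt2a is filled, at 0.31.

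Levels per unit of transcript length put the genes in a different order from counts. In PBS, Setd1a (24.4 ± 2.68 TPM) and Kmt2d (23.2 ± 3.05 TPM) were the highest (SD, n = 3), and their ranges overlapped. Kmt2e (12.5), Kmt2b (11.7), Nsd1 (11.6), Setd1b (9.94), Kmt2a (8.32), Ash1l (6.71) and Setd2 (6.14) followed in mean TPM, each overlapping the next in its 3 values. Kmt2c was the lowest (3.93 ± 0.30 TPM) and did not reach the range of Setd2. With 5-FU, Kmt2d came first (30.5 TPM), ahead of Setd1a (23.8 TPM), and Nsd1 (16.9 TPM) came next.

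The TPM and the counts of a member did not always move alike. Nsd1 had 12.7, 13.0 and 9.09 TPM in PBS and 13.1, 20.5 and 17.1 TPM in 5-FU, so that all 5-FU libraries were above all PBS libraries on this scale. Its log2 ratio of mean TPM was 0.55, where the counts gave 0.24. Between 52.9 and 96.1 estimated counts stood behind each TPM unit of Nsd1, lowest in 5-FU replicate 2 (1086 counts) and highest in PBS replicate 3 (874 counts). GENCODE M21 lists 11 transcripts of Nsd1, the most of any member. Kmt2e likewise gave 0.28 in TPM and 0.13 in counts, with groups that did not overlap in TPM, and Kmt2a gave 0.65 and 0.48. For Kmt2c the order was turned, with 0.29 in TPM and 0.36 in counts, and 1 of its 9 pairs was lower in 5-FU. With limma on log2(TPM + 1), only Kmt2a was called among the members.

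**Figure D4:**
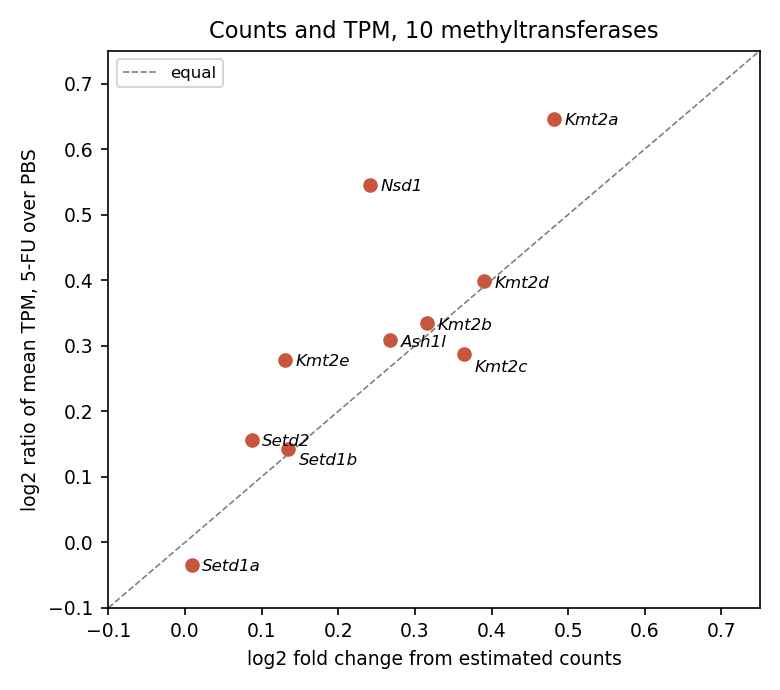
Log2 ratio of the group means in TPM (vertical) against the log2 fold change fitted to estimated counts (horizontal) for the 10 methyltransferases, with a dashed line where both are equal. Nsd1 (0.24 and 0.55), Kmt2a (0.48 and 0.65) and Kmt2e (0.13 and 0.28) lie above the line by the most.

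The chromatin genes that work with these enzymes were compared in 6 lists of textbook partners holding 104 genes, of which 102 were tested. The lists, like the members, were drawn up with earlier results of these data known. Of the 102, 4 rose (3.92%), 0 fell and 98 were not called (edgeR adjusted p under 0.05), where 3.87% of all genes tested were called higher and 3.26% lower. The median log2 fold change was 0.042. An unadjusted p under 0.05 was found for 33 genes (32.4%, against 23.8% of all genes tested), and DESeq2 called 7, the same 4 with Ep300 and Arid1a as higher and the chromodomain gene Morf4l1 as lower. In 25 of the 102 (24.5%) every 5-FU library was above every PBS library, and in 8 (7.84%) every one was below, against 15.0% and 14.2% of all genes tested. The lists were not tested as sets. Nothing on the calls of the 102 is read from the fit without 5-FU replicates 2 and 3, which leaves a single 5-FU library.

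The subunits and cofactors of the methyltransferase complexes had a median log2 fold change of 0.008, with 10 values above and 9 below 0. Of 19 tested only Bod1l, which encodes a partner of SETD1A that protects stalled replication forks, rose. Its level was 8.45, 8.83 and 9.02 CPM in PBS and 9.87, 13.5 and 16.02 CPM in 5-FU (log2 fold change 0.58, SE 0.15, edgeR adjusted p = 0.0441), and of the 6 fits that left out a library only that without 5-FU replicate 1 kept the call. In the main edgeR fit, with all libraries, the shared core was not called, with Wdr5 at -0.14, Rbbp5 at 0.10, Ash2l at -0.025 and Dpy30 at -0.082. Nor were menin (Men1, 0.12) and the SETD1 subunit Cxxc1 (0.13). With length and GC offsets Wdr5 was called lower (-0.14, edgeR adjusted p = 0.0478).

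The other H3K4 and H3K36 methyltransferases (10 tested, median 0.021) gave no call in the main edgeR fit. The same held for the demethylases of these marks (12 tested, median 0.035) and their readers (25 tested, median 0.042). Unadjusted p-values were under 0.05 for 2, 3 and 4 genes of these lists, and DESeq2 also called 0 genes in them. Lowest in p were Smyd2, a methyltransferase that also acts on proteins other than histones (82.6 ± 3.90 to 72.9 ± 3.01 CPM, log2 fold change -0.18, edgeR adjusted p = 0.0620), Kdm5b, an H3K4 demethylase (38.7 ± 2.99 to 45.6 ± 1.88 CPM, 0.24, edgeR adjusted p = 0.0551), and Phf19, which binds H3K36 methylation as part of the Polycomb machinery (22.29 ± 1.004 to 25.79 ± 0.9635 CPM, 0.21, edgeR adjusted p = 0.0785). Other edgeR settings did call genes of these lists. With a replicate block Smyd2 was lower and Kdm5b higher (edgeR adjusted p = 0.035 and 0.0338), where 1199 of all genes were called. Kdm5b was also called with library size alone (edgeR adjusted p = 0.042), and Kdm4c without 5-FU replicate 1 (edgeR adjusted p = 0.0346). Nsd2 and Nsd3, the paralogues of Nsd1, had values of -0.036 and -0.064 in the main fit.

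Of 13 methyltransferases for other histone lysines, Ezh1 rose. It encodes an H3K27 methyltransferase of resting and differentiated cells. Its level was 58.5, 54.7 and 51.3 CPM in PBS and 67.6, 66.9 and 67.8 CPM in 5-FU, with no overlap (log2 fold change 0.30, SE 0.055, edgeR adjusted p = 0.00965). It was called in 5 of the 6 fits without a library, the exception being that without PBS replicate 2. Its counterpart of dividing cells, Ezh2, was at 37.9 and 32.5 CPM (-0.22, edgeR adjusted p = 0.0981). In the list of chromatin remodellers and acetyltransferase complexes, which has the longest transcripts of the 6 (median 9085 bases), 2 of 23 rose and 18 values were above 0 (median 0.11). Atrx, a remodeller that places histone H3.3 in heterochromatin, had 7.26, 7.39 and 9.31 CPM in PBS and 10.7, 13.7 and 15.4 CPM in 5-FU (0.73, SE 0.145, edgeR adjusted p = 0.0141). Its call was lost without PBS replicate 1 and without PBS replicate 2. Chd9, a helicase of the CHD family, had means of 9.13 ± 0.23 and 12.9 ± 1.75 CPM (0.50, SE 0.11, edgeR adjusted p = 0.0244) and was called in only 1 of those 6 fits, that without 5-FU replicate 1. With the length and GC offsets the same 4 genes rose, and 7 others fell. Those 7 were Ino80 (-0.235) and Arid1b (-0.193) of the remodeller list, with Nsd3 (-0.155), Smyd2 (-0.18), Smyd5 (-0.17), Wdr5 (-0.14) and the H3K79 methyltransferase Dot1l (-0.16). In that fit the remodeller list had 2 genes higher, 2 lower and a median of 0.016. Over the 6 lists the balance of 4 higher and 0 lower thus turned to 4 and 7. Over all 12135 genes tested it also turned, from 470 higher and 396 lower to 502 and 668. Atrx (log2 ratio 0.85) and Bod1l (0.63) are also in the authors' deposited table.

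**Figure D5:**
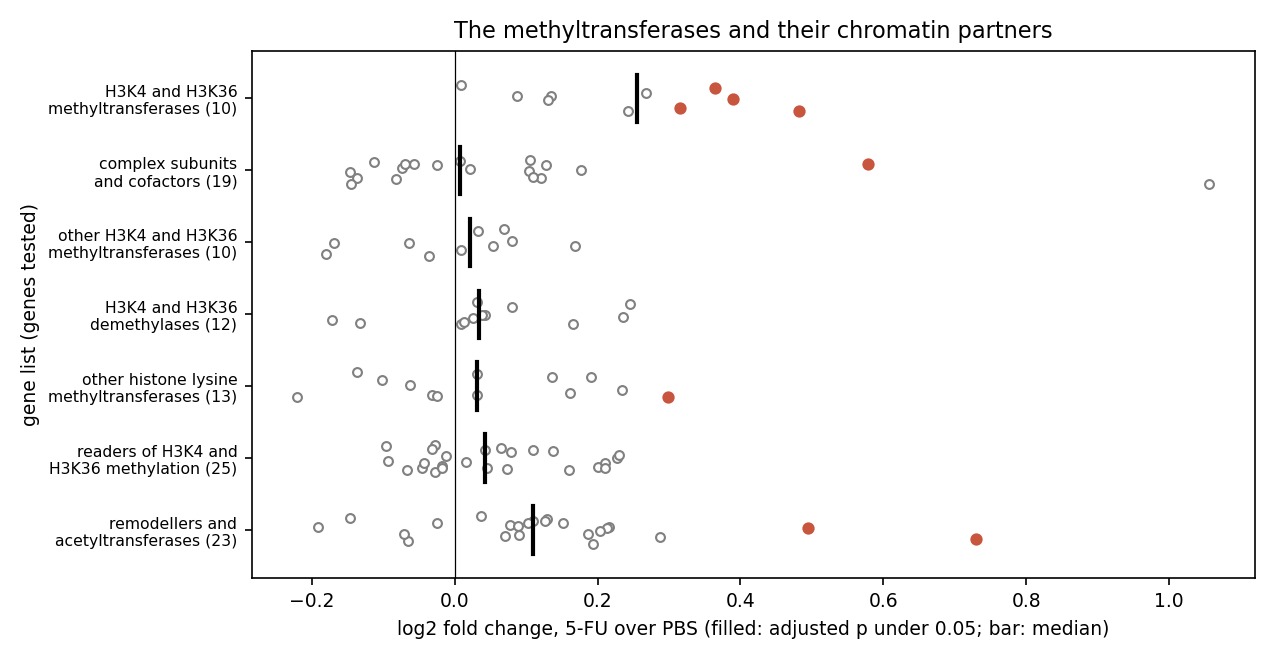
Log2 fold change of each tested gene (horizontal), by list (vertical, number tested in brackets), filled where edgeR's adjusted p was under 0.05, with the list's median as a bar. The 10 methyltransferases have a median of 0.26, and the 6 lists of other chromatin genes have medians between 0.008 and 0.11.

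The members were also set against other genes by their pattern over the 6 libraries. The mean centred log2 CPM of the 10 correlated with single members at a Pearson's r between 0.46 (Setd1a) and 0.98 (Nsd1), each member being part of that mean. Among 10008 other genes with a mean of at least 5 CPM, 254 reached an r of at least 0.9 over these 6 libraries. The highest were Pigb (0.99), Fnip2 (0.99), Hdac7 (0.99), Smtn (0.99) and Nrbf2 (0.99). Their log2 fold changes lay between 0.093 and 0.31, and their longest transcripts between 1813 and 7299 bases, so that they include genes shorter than any of the 10. These points share libraries and depth, and the correlations are a description.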

How the data were processed

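RNA was measured in 3 PBS and 3 5-FU libraries of C2C12 cells. Libraries were made from Trizol-extracted, mRNA-enriched RNA with a NEBNext Ultra kit, per the labels' protocols. The submitters' processing notes name StringTie 1.3.1, with no role. No aligner, counter, build or annotation is given in these sources. Per the file headers, the authors deposited for each gene and library an estimated count and a TPM value, and 7.31% to 8.04% of the counts of a library are not whole (tolerance 0.005). The authors also deposited, for 186 genes, mean TPM values, the log2 ratio of those means, a p-value and an FDR, by a test that is not stated.

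Estimated counts were rounded and tested with edgeR 4.0.16 (R 4.3.3): filterByExpr (12135 genes), TMM factors, a two-sided quasi-likelihood F test, and Benjamini-Hochberg adjustment over all genes tested. The SE is the log2 fold change divided by the square root of F. The fit was checked on simulated counts. Lengths and GC content are those of the longest GENCODE M21 transcript (99.9% of tested genes matched). Per-library log2 CPM used a prior count of 2. Members and lists were chosen with earlier results of these data known. The text names all members, up to 3 called genes of each list by size of change or the one with the lowest p, and the 5 most similar genes of at least 5 CPM; other list genes were named after their values were seen. Alternatives used DESeq2 1.42.0, limma 3.58.1 (voom, and log2 TPM with pseudocounts of 1 and 0.1), other size factors and filters, a replicate block, length and GC offsets, and fits without each library. Depth is given as total estimated counts.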

Additional observations from a re-analysis of the deposited data

How the results depend on the processing

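Kmt2a, Kmt2b, Kmt2c, Kmt2d, Setd1b, Nsd1 and Ash1l kept a positive value in each of the 22 alternatives. Their lowest values were 0.309, 0.198, 0.155, 0.141, 0.011, 0.043 and 0.02 in that order. Every fold change stays as in the main fit at an adjusted p under 0.01, which is among these alternatives. Setd1a turned negative in 11 of them: -0.029 with log2(TPM + 1), with and without a filter, -0.030 with log2(TPM + 0.1), -0.081 with length and GC offsets, -0.083 with these and the replicate block, -0.038 with length alone, -0.033 with GC alone, -0.017 when PBS replicate 2 was left out, -0.016 when PBS replicate 3 was, and -0.036 when 5-FU replicate 3 was (-0.036 to 0.061 over the fits without 1 library), and -0.002 without 5-FU replicates 2 and 3. Setd2 turned to -0.003 without 5-FU replicate 3 (-0.003 to 0.193 over the fits without 1 library) and to -0.142 without 5-FU replicates 2 and 3, where Kmt2e was at -0.067. 

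The 4 member calls became 0 at an adjusted p under 0.01, 0 with unfiltered log2(TPM + 1) and 1 with log2(TPM + 1) or log2(TPM + 0.1). They became 1 with length and GC offsets, 2 with length alone and 0 to 6 without 1 library. The 866 genes called became 239, 156, 528 and 513 under the first 4 of these settings, 2173 with the block and offsets, 169 without 5-FU replicates 2 and 3, and 259 to 664 without 1 library. The 4 list genes called became 7 with DESeq2, library size alone, no filter or GC alone, and 8 with the replicate block or length alone. They became 11 with length and GC offsets, and 19 with these and the block. At an adjusted p under 0.01 there was 1, with unfiltered log2(TPM + 1) 0, and without 1 library 0 to 6. Calls without 5-FU replicates 2 and 3 are not given, since that fit leaves a single 5-FU library. The causes were not tested.

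Of the called genes 54.3% were higher, against 63.7% with library size alone, 42.9% with length and GC offsets, 42.7% with these and the block, 43.1% with length alone, 64.8% with log2(TPM + 1) and 65.1% with log2(TPM + 0.1). Same-numbered libraries deviated from their group means with correlations of -0.002, 0.087 and 0.132 across genes. Libraries with different numbers gave values between -0.133 and 0.044. Whether the numbers pair the samples cannot be told from these weak correlations. The replicate block gave 1199 calls, with the same 4 members and Kmt2a at 0.49, and with offsets it left Kmt2a, Kmt2b and Kmt2d. With voom, Kmt2c was not called.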
